A study of Homo sapiens with 16 samples.

Results

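Gene expression was compared between 2 libraries titled zdna4 CL and 2 libraries titled zdna2 CL, which are 4 of the 16 libraries of the series. All come from U2OS, a human osteosarcoma cell line, and were made from total RNA. The genotype label of the first pair is zdna4_CL and that of the second is zdna2_CL, each with replicates 1 and 2. What the numbers and the letters CL and CC stand for is not spelled out in the labels, and no library is called a control there, so zdna4 CL is set over zdna2 CL without either being a baseline. The 4 other CL libraries (zdna1 CL and zdna3 CL, 2 each) entered the model as further group means, and the 8 CC libraries entered only an alternative fit over all 16 libraries. Nothing in the labels tells if the replicates are cultures of their own, or if a genotype is 1 clone, so the p-values below measure the spread between these libraries, which may be technical.

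The series title names MYC, FACT and Z-DNA. Z-DNA is a left-handed form of the double helix that can form in DNA under torsional strain, for example behind a transcribing polymerase. MYC is a transcription factor that binds E-box sequences together with MAX, and in proliferating cells its best known targets include genes of ribosome production. FACT, formed by SUPT16H and SSRP1, is a histone chaperone that takes nucleosomes apart and rebuilds them along transcribed genes. Genes of mitosis, which are among those that differed most here, are transcribed late in the cell cycle through CCAAT boxes and the cell cycle genes homology region, an element bound by repressor complexes in resting cells and by activating complexes before division.

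The promoters of 5 genes are shown as examples of motif matches in gene groups described below. They were picked by smallest p among called genes whose promoter held every motif searched for their group. That they hold these motifs was thus fixed by the choice, and they need not be typical of their group. The capitals mark every match, on either strand, to the motif searched for that group. The sequences are the 250 bases before the transcription start in RefSeq (GRCh38.p14), read 5′ to 3′ in the direction of the gene. MKI67 lies at chr10:128126424-128126673 on the minus strand, TOP2A at chr17:40417897-40418146 on the minus strand and H1-1 at chr6:26017788-26018037 on the minus strand. UTP20 lies at chr12:101279855-101280104 on the plus strand and CCN2 at chr6:131951373-131951622 on the minus strand. The motifs were TTTGAA (cell cycle genes homology region) and CCAAT for MKI67 and TOP2A, the TATA box TATAAA, again with the CCAAT box, for H1-1, CACGTG (E-box) for UTP20, and GGAATG, the core of the TEAD site, for CCN2.
MKI67: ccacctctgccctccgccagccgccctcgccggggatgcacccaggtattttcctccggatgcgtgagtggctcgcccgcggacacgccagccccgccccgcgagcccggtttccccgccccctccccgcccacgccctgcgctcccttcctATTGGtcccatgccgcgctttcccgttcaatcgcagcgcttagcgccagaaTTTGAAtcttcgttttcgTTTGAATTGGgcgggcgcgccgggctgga
TOP2A: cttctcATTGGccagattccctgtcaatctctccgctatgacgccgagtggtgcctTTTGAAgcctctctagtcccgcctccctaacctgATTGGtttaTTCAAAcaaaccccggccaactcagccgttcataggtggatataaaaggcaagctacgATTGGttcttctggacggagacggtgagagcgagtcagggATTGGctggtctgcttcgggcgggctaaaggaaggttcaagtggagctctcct
H1-1: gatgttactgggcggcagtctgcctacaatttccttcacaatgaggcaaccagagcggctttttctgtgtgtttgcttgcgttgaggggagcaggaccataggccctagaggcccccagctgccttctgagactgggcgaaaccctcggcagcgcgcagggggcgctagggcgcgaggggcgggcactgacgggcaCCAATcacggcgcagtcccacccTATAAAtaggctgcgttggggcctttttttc
UTP20: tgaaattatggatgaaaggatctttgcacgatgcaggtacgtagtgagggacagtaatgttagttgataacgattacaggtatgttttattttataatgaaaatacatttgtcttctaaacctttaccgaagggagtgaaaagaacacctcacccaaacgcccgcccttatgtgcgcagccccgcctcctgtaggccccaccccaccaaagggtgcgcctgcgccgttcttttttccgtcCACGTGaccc
CCN2: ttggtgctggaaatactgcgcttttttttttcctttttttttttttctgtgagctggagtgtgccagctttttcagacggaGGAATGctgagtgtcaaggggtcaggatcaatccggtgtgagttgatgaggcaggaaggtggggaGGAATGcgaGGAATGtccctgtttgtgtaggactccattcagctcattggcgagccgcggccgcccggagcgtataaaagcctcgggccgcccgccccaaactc
In MKI67 the last capitals are a TTTGAA and an ATTGG, the reverse complement of CCAAT, that overlap by 1 base. TTTGAA or its reverse complement was in 13 of the 25 promoters listed for called mitotic genes (52%). In the whole list it was in 25 of 49 (51%), against 13.6% of all 27305 promoters and 8.46% of the promoters of tested genes. CCAAT was in 20 of the same 25 (80%) and in 34 of the same 49 (69.4%), against 33% of all promoters and 35.8% of those of tested genes. Of the 17 promoters listed for called histone genes, TATAAA was in 14 (82.4%, against 11.1% of all promoters) and CCAAT in 16 (94.1%). Of the 58 promoters of the whole histone list, TATAAA was in 39 (67.2%) and CCAAT in 49 (84.5%). CACGTG was in 2 of 10 promoters of called ribosome biogenesis genes, UTP20 and EBNA1BP2 (20%), and in 5 of 35 promoters of the whole list (14.3%), against 6.49% of all promoters and 9.96% of those of tested genes. GGAATG was in 4 of 5 promoters of called YAP and TGF-beta targets (80%) and in 4 of 17 of the whole list (23.5%), against 11.9% of all promoters and 9.6% of those of tested genes. TGANTCA, the AP-1 motif, was in 0 of 2 promoters of called AP-1 and immediate early genes (6.6% of all promoters). A match describes the letters in this window and does not show a bound site.

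The zdna4 CL libraries held 310187 and 225177 reads assigned to human genes, against 137628 and 168213 in zdna2 CL. Levels below are in CPM, reads scaled to the TMM-adjusted total of human-gene reads. Scaled to the plain total, before the TMM factor, 1 read is worth 3.22 and 4.44 CPM in zdna4 CL. In zdna2 CL it is worth 7.27 and 5.94 CPM. Each library was also counted over a contig of its own number, of length 198 bases for zdna4 and 190 for zdna2. That contig took 1.40% and 1.28% of all assigned reads in zdna4 CL, against 60.0% and 61.1% in zdna2 CL. All levels below are of human genes only. Depth and contig share thus differ between the groups along with the genes, and their part in the results was not tested. The gene counts of replicates differed by little more than sampling noise in zdna4 CL (chi-square p = 0.0437 over 8342 genes), and no excess over it was detectable in zdna2 CL (chi-square of 6277 on 6213 degrees of freedom, p = 0.281 over 6214 genes), but the contig's share differed within each pair (p = 1.67e-04 in zdna4 CL and 9.03e-23 in zdna2 CL), so each was kept as 2 libraries. The 8 mesenchymal markers used to check U2OS summed to 5915 and 5594 CPM in zdna4 CL, against 5121 and 5441 CPM in zdna2 CL. Among them VIM, FN1 and COL1A1 were abundant, while COL1A2 had 1 and 0 reads in zdna4 CL and 0 and 1 in zdna2 CL. Epithelial markers summed to at most 10.1 CPM, with EPCAM and KRT19 at 0, and blood and hepatocyte markers to at most 7.21 CPM each, with CD3E, HBA1, HBB, APOA1 and TTR at 0. The 4 neuronal markers summed to 192 and 126 CPM in zdna4 CL, against 64.9 and 30.0 CPM in zdna2 CL, which is almost all TUBB3, and SYP was at 0. Olfactory receptor genes, used as a gauge of even background, summed to 105 and 108 CPM in zdna4 CL, against 166 and 126 CPM in zdna2 CL.

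Of 4697 human genes tested, 455 differed between zdna4 CL and zdna2 CL by limma at a Benjamini-Hochberg adjusted p under 0.05, and these are the genes called below. They are 9.69% of the genes tested. In zdna4 CL 284 were higher (6.05%) and 171 were lower (3.64%). The median size of a called change was 0.96 on the log2(CPM + 10) scale, which understates the change of weakly expressed genes, and 207 called genes changed by at least 1 in log2, 142 of them higher. The median of all tested genes was -0.02. On the scale of the deposited values it was 0.22, a shift of 0.24, and 741 genes were called there, 665 of them higher (89.7%, against 62.4% higher among the 455). Changes below are relative to TMM scaling over human genes. EdgeR's quasi-likelihood test on the recovered reads called 495 genes (10.5% of those tested, 6.2% higher and 4.34% lower), 433 of them shared, and DESeq2 called 78, all of them shared. The fits without zdna4 CL replicate 1 and replicate 2 called 79 and 86 genes, all of them among the 455. Those without zdna2 CL replicate 1 and replicate 2 called 246 and 328, of which 216 and 249 were among the 455. In each of the 4 fits without 1 library 58 genes were called in the same direction (35 higher and 23 lower), and DESeq2 also called 55 of them. The libraries of the groups did not overlap in CPM for 453 of the called genes, against 52.5% of all genes tested. The largest rises and falls named below were drawn from called genes without overlap, so that trait was fixed by the choice.

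**Figure D1:**
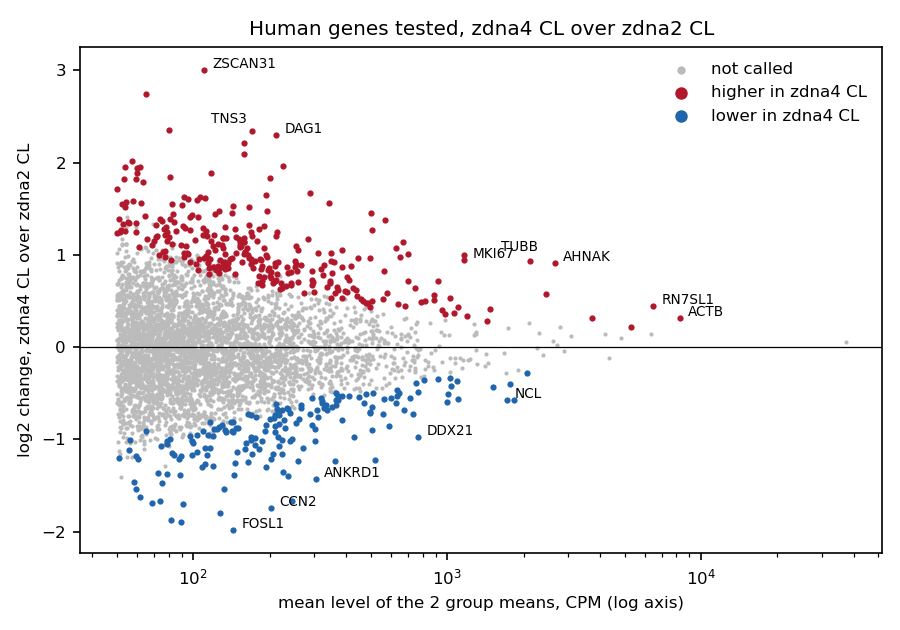
Change of each tested human gene on the log2(CPM + 10) scale, zdna4 CL over zdna2 CL, against its mean level in CPM on a log axis. Each point is 1 gene, with 284 called higher in red, 171 called lower in blue and the others in grey. ZSCAN31 stands highest at 3.00 and FOSL1 lowest at -1.99, and the abundant AHNAK and TUBB stand at 0.91 and 0.93.

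The gene lists describe 32 pathways and complexes. In number of called members, mitosis led with 29 of 51 tested. The replication-dependent histones followed with 18 of 28 and the ribosome biogenesis list with 12 of 41. Mitosis and the histones held only higher called members and the ribosome biogenesis list only lower ones. By share of tested members called, the histones (64.3%) and tubulins (62.5%) came before mitosis (56.9%). The ribosome biogenesis share (29.3%) was below several others, such as YAP and TGF-beta targets (46.7%) and matrix genes (40.7%). Of all tested genes 9.69% were called. Lists of the respiratory chain, the interferon response and the unfolded protein response of the endoplasmic reticulum held no called member.

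**Figure D2:**
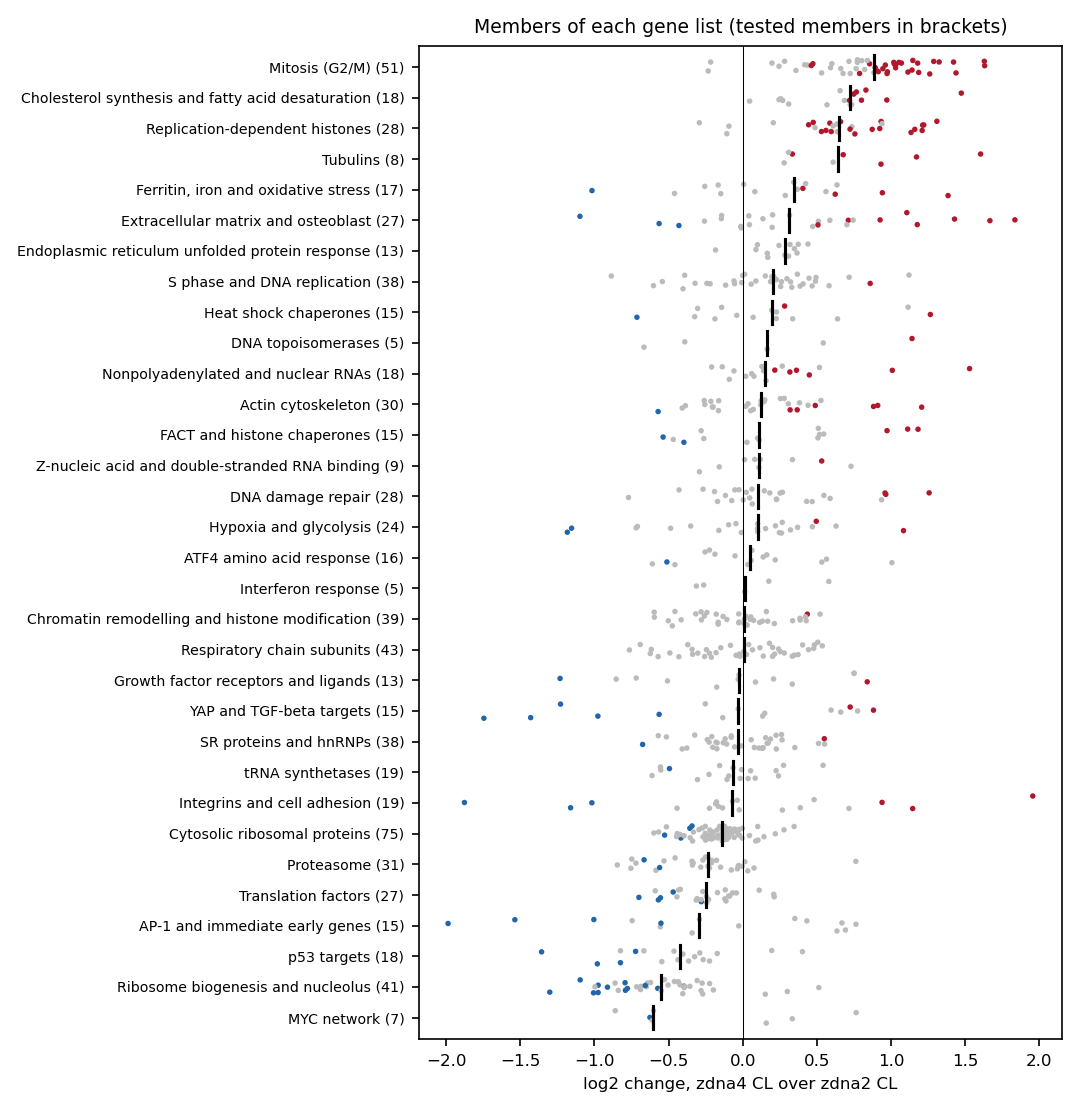
Log2 change of the tested members of each of the 32 lists, zdna4 CL over zdna2 CL, with the number tested in brackets. Points are genes (red called higher, blue called lower, grey not called) and the black bar is the list's median. It runs from 0.88 for mitosis to -0.60 for the 7 tested genes of the MYC network, of which 4 had a negative and 3 a positive change.

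Genes of mitosis were higher in zdna4 CL. Of 51 tested members 29 rose and none fell, against 6.05% of all tested genes called higher, and the median change was 0.88, against -0.02 for all genes. Their summed level was 14530 and 13747 CPM in zdna4 CL, against 7956 and 8069 CPM in zdna2 CL, a ratio of 1.76. In bulk RNA a larger share of cells near mitosis and more of these transcripts per cell cannot be told apart. The other CL groups had 9217 and 8916 CPM in zdna1 CL and 8329 and 8523 CPM in zdna3 CL. MKI67 (hg19 chromosome 10, 129894925 to 129924687, minus strand) encodes Ki-67, the surface protein of mitotic chromosomes. It had 1593 and 1488 CPM in zdna4 CL, against 829 and 762 CPM in zdna2 CL. Both zdna4 CL libraries lay above both zdna2 CL libraries, and the change was 0.94 (SE 0.102, adjusted p = 8.71e-08 by limma).

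TOP2A (chromosome 17, 38544777 to 38574148, minus strand), the topoisomerase that untangles sister chromatids, had 962 and 890 CPM in zdna4 CL, against 397 and 432 CPM in zdna2 CL. Its change was 1.14 (SE 0.149, adjusted p = 2.51e-06 by limma), with no overlap between the groups. CENPF, a protein of the kinetochore, the structure that holds chromosomes to the spindle, had 884 and 850 CPM in zdna4 CL, against 411 and 462 CPM in zdna2 CL, a rise of 0.98 (SE 0.137, adjusted p = 7.68e-06). NCAPD2, a subunit of condensin, which compacts mitotic chromosomes, had 574 and 472 CPM in zdna4 CL, against 245 and 246 CPM in zdna2 CL, a rise of 1.05 (SE 0.175, adjusted p = 8.43e-05). These 4 genes kept their call without each library in turn and by DESeq2.

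The transcription factor FOXM1, which drives this programme, rose by 1.02 (SE 0.181, adjusted p = 2.28e-04), with 442 and 495 CPM in zdna4 CL, against 180 and 282 CPM in zdna2 CL, and its adjusted p was 0.0713 without zdna4 CL replicate 2. The cyclins CCNB1 (0.79), CCNB2 (1.63) and CCNA2 (1.11), the kinase PLK1 (1.29), the checkpoint kinase BUB1B (1.07) and CDC20 (0.89), the activator of the anaphase-promoting complex, also rose. So did the spindle motors KIF20A (1.63), KIF14 (1.44) and KIFC1 (1.19) and INCENP (1.32), the scaffold of the chromosomal passenger complex. AURKA (0.77, adjusted p = 0.0622), BIRC5 (0.77, adjusted p = 0.0681), CDK1 (0.72, adjusted p = 0.113) and BUB1 (0.60, adjusted p = 0.106) did not pass the test. The called members numbered 6 and 5 without zdna4 CL replicate 1 and replicate 2, and 16 and 22 without zdna2 CL replicate 1 and replicate 2. DESeq2 called 5 and edgeR 30.

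**Figure D3:**
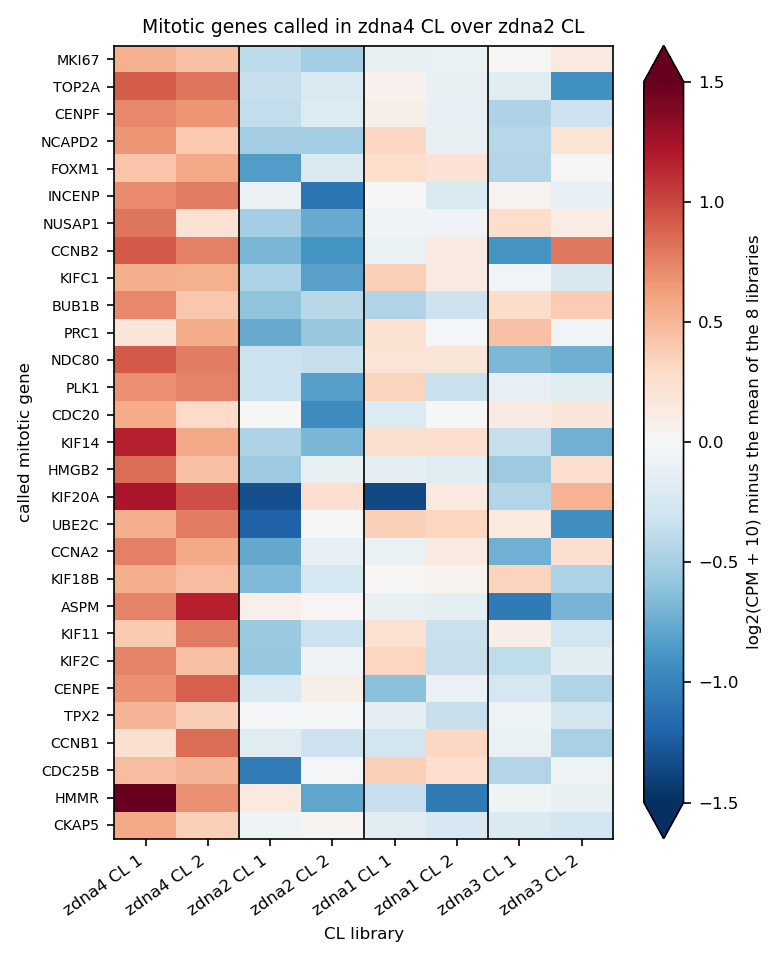
The 29 mitotic genes called in zdna4 CL over zdna2 CL (rows) in the 8 CL libraries (columns), coloured by log2(CPM + 10) minus the gene's mean over the 8 libraries. The zdna4 CL columns are red in each row, and in zdna2 CL most fields are blue, with single exceptions such as KIF20A in replicate 2. The zdna1 CL and zdna3 CL columns are mixed.

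DNA replication genes act earlier in the cell cycle. Of 38 tested S phase members 1 was called (2.63%), and the median change was 0.20. That gene was UHRF1, which brings DNA methylation to replicated DNA, with 145 and 157 CPM in zdna4 CL, against 93.8 and 66.0 CPM in zdna2 CL (0.86, SE 0.263, adjusted p = 0.0324), and 3 of the fits without 1 library did not call it (adjusted p up to 0.468). PCNA, the sliding clamp of the replication fork, changed by 0.72 (adjusted p = 0.140), with its zdna4 CL values of 138 and 166 CPM overlapping the 50.5 and 150 CPM of zdna2 CL. Of 28 tested DNA damage repair genes 3 rose, H2AX (0.97), PMS2 (1.26) and RECQL4 (0.96), which is 10.7% of the list, near the 9.69% of all tested genes called. The median was 0.10, and the call of each was lost without at least 1 library (adjusted p up to 0.543). PMS2 shares sequence with near-identical copies.

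Replication-dependent histone genes supply histones while DNA is copied, and their mRNAs end in a stem-loop instead of a poly(A) tail. Of 28 tested members 18 rose and none fell, with a median of 0.65. Their summed level was 9198 and 9182 CPM in zdna4 CL, against 5965 and 5909 CPM in zdna2 CL, while zdna1 CL had 6671 and 6731 CPM and zdna3 CL 11058 and 10976 CPM. H1-1, a linker histone (chromosome 6, 26017260 to 26018040, minus strand), had 290 and 261 CPM in zdna4 CL, against 108 and 102 CPM in zdna2 CL, a rise of 1.31 (SE 0.214, adjusted p = 6.93e-05). The core histone H2AC12 had 283 and 315 CPM in zdna4 CL, against 115 and 132 CPM in zdna2 CL, a rise of 1.21 (SE 0.197, adjusted p = 6.87e-05), and H2BC21 rose by 0.93 (SE 0.157, adjusted p = 1.01e-04). The groups did not overlap for these 3 genes, which kept their call without each library in turn and by DESeq2.

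The linker histones H1-2 and H1-4 rose by 0.56 and 0.53, and DESeq2 called neither. H1-2 lost its call without either zdna4 CL library, and H1-4 lost its call without zdna4 CL replicate 2. Called histone genes numbered 4 without either zdna4 CL library, and 10 and 15 without zdna2 CL replicate 1 and replicate 2, and DESeq2 called 3. Histone genes are near-identical copies, so a rise cannot be assigned with certainty to 1 copy.

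Tubulin genes, which encode the subunits of microtubules and of the mitotic spindle, were higher as well. Of 8 tested members 5 rose and none fell, with a median of 0.64, and their summed level was 6415 and 5882 CPM in zdna4 CL, against 3772 and 3947 CPM in zdna2 CL. In zdna1 CL the sum was 5692 and 5713 CPM, and in zdna3 CL 4159 and 4204 CPM. TUBB, a beta-tubulin (chromosome 6, 30688129 to 30693195, plus strand), had 2915 and 2676 CPM in zdna4 CL, against 1471 and 1446 CPM in zdna2 CL, a rise of 0.93 (SE 0.0824, adjusted p = 1.89e-09). The groups lay far apart compared with the gap between replicates, and the call held without each library in turn and by DESeq2.

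TUBB3 (1.60), TUBA1A (1.17), TUBB4B (0.68) and TUBA1B (0.33) rose too, but each lost its call without at least 1 library (adjusted p up to 0.461). Without zdna4 CL replicate 1 only 1 tubulin was called and without replicate 2 only 2 were, and 4 and 6 were without zdna2 CL replicate 1 and replicate 2. Tubulin genes are closely related in sequence. MAP1A, a protein that binds and stabilises microtubules, rose by 2.22 (SE 0.291, adjusted p = 2.70e-06), with 290 and 243 CPM in zdna4 CL, against 57.7 and 42.0 CPM in zdna2 CL.

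**Figure D4:**
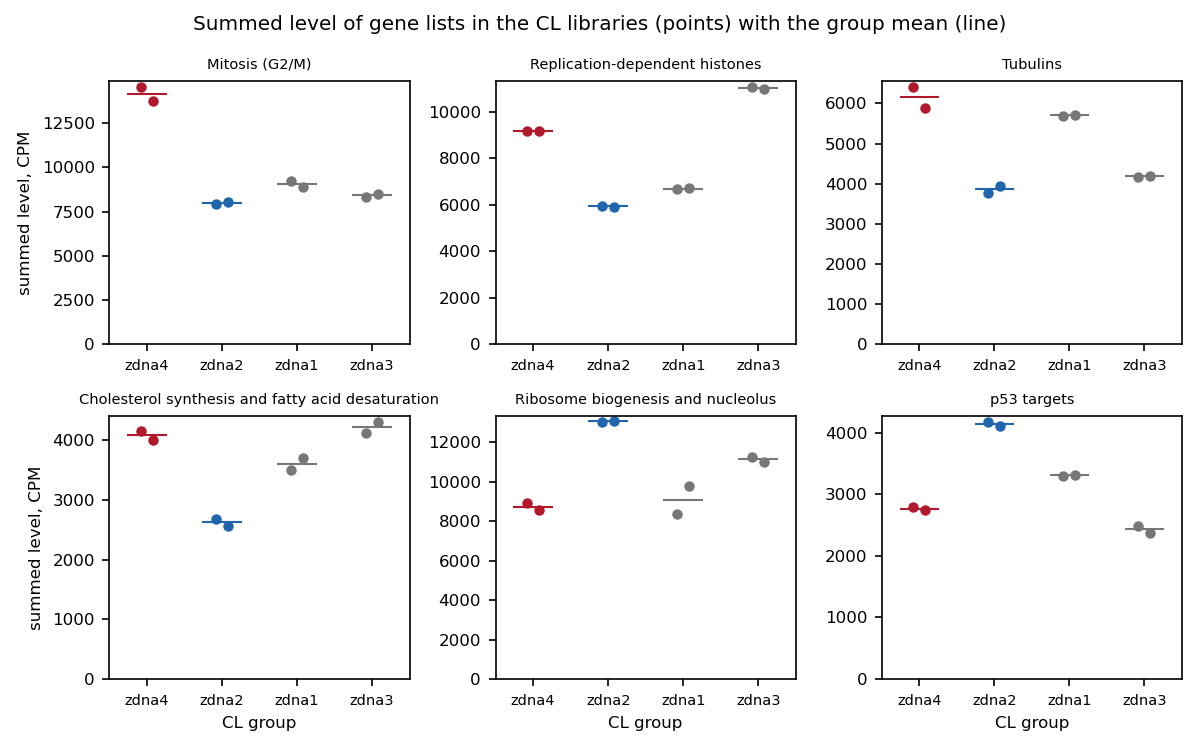
Summed level in CPM of 6 gene lists in the CL libraries, with points for libraries and a line for the mean of 2. Mitosis, histones, tubulins and lipid synthesis were higher in zdna4 CL than in zdna2 CL, and ribosome biogenesis and p53 targets were lower, with no overlap between the libraries of the groups in these 6 sums.

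Genes of cholesterol synthesis and fatty acid desaturation were higher in zdna4 CL. All 18 tested members had a positive change and 7 passed the test, with a median of 0.72. Their summed level was 4150 and 4002 CPM in zdna4 CL, against 2683 and 2562 CPM in zdna2 CL. The sum was 3504 and 3690 CPM in zdna1 CL and 4123 and 4307 CPM in zdna3 CL, so zdna2 CL was the lowest of the CL groups. FADS2, a fatty acid desaturase (chromosome 11, 61583675 to 61634826, plus strand), had 300 and 279 CPM in zdna4 CL, against 79.3 and 120 CPM in zdna2 CL, a rise of 1.47 (SE 0.213, adjusted p = 1.27e-05) that held without each library in turn and by DESeq2. SCD, the stearoyl-CoA desaturase, rose by 0.80, ACACA, the first enzyme of fatty acid synthesis, by 0.75, and SREBF2, the transcription factor of the cholesterol pathway, by 0.77. FADS1, SQLE and FDFT1 completed the 7. None of these 6 was called without either zdna4 CL library. HMGCS1, an early enzyme of cholesterol synthesis, changed by 0.26 (adjusted p = 0.556). The called members numbered 1 without either zdna4 CL library, and 3 and 5 without zdna2 CL replicate 1 and replicate 2.

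Extracellular matrix and osteoblast genes moved in both directions. Of 27 tested members 8 rose and 3 fell (40.7% called), with a median of 0.32. IGFBP5, a secreted binding protein of insulin-like growth factors (chromosome 2, 217536828 to 217560272, minus strand), had 398 and 486 CPM in zdna4 CL, against 115 and 150 CPM in zdna2 CL, a rise of 1.67 (SE 0.198, adjusted p = 5.96e-07). The basement membrane genes LAMA5, a laminin chain (1.84, adjusted p = 1.68e-05), and HSPG2, the proteoglycan perlecan (1.18, adjusted p = 3.25e-05), rose with it. COL1A1, a chain of type I collagen, had 1151 and 1133 CPM in zdna4 CL, against 656 and 732 CPM in zdna2 CL, a rise of 0.71 (SE 0.107, adjusted p = 2.07e-05).

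These 4 kept their call without each library in turn and by DESeq2. SPARC, a bone matrix glycoprotein, rose by 0.51 (adjusted p = 0.002, and 0.181 without zdna4 CL replicate 2). Fibronectin, FN1, fell by 0.43 (adjusted p = 0.00248, and 0.235 without zdna4 CL replicate 2), and it was not called on the scale of the deposited values, where its change was -0.17. THBS1, thrombospondin, fell by 0.56, with 925 and 850 CPM in zdna4 CL, against 1334 and 1296 CPM in zdna2 CL (SE 0.0920, adjusted p = 6.87e-05). Called members of the list, in both directions, numbered 6 and 5 without zdna4 CL replicate 1 and replicate 2, and 7 and 11 without zdna2 CL replicate 1 and replicate 2.

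Receptors and linkers of the cell surface differed by gene and not as a group. DAG1, dystroglycan, a receptor for laminin and perlecan (chromosome 3, 49506136 to 49573051, plus strand), had 388 and 328 CPM in zdna4 CL, against 57.7 and 72.0 CPM in zdna2 CL, a rise of 2.30 (SE 0.227, adjusted p = 1.72e-08). TNS3, a tensin of integrin adhesions, had 260 and 324 CPM in zdna4 CL, against 57.7 and 42.0 CPM in zdna2 CL, a rise of 2.34 (SE 0.280, adjusted p = 6.28e-07). CD44, the hyaluronan receptor, had 206 and 184 CPM in zdna4 CL, against 447 and 366 CPM in zdna2 CL, and fell by 1.02 (SE 0.163, adjusted p = 5.59e-05). All 3 kept their call without each library in turn, and their groups did not overlap.

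Of 19 tested integrin and adhesion genes 3 rose and 3 fell, with a median of -0.07 that turns to 0.18 on the scale of the deposited values. ITGA2, the collagen-binding alpha-2 integrin, had 27.0 and 31.5 CPM in zdna4 CL, against 130 and 138 CPM in zdna2 CL, a fall of 1.88 (SE 0.309, adjusted p = 7.56e-05). The laminin-binding ITGA6 fell by 1.16 (adjusted p = 0.00110, and 0.204 without zdna4 CL replicate 2). ITGB8 rose by 1.96 (adjusted p = 0.00179), L1CAM by 1.15 (adjusted p = 0.0274, and 0.463 without zdna4 CL replicate 2) and NECTIN2 by 0.94 (adjusted p = 0.0361, and 0.452 without zdna4 CL replicate 2). ITGB8 was below the filter and not tested without either zdna4 CL library. The 6 called adhesion genes numbered 3 and 2 without zdna4 CL replicate 1 and replicate 2, and 4 without either zdna2 CL library. Of 13 growth factor receptors and ligands, EPHA2 fell by 1.23 (adjusted p = 1.62e-05), EPHB4 rose by 0.84 (adjusted p = 0.0364, and 0.497 without zdna4 CL replicate 1), and the median was -0.02, against 0.22 on the deposited scale.

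Genes of the actin cytoskeleton had a median change of 0.12, against -0.02 for all genes. Of 30 tested members 6 were higher and 1 was lower (23.3% called, against 9.69% of all tested genes). AHNAK, a giant scaffold protein under the plasma membrane (chromosome 11, 62201016 to 62314278, minus strand), had 3381 and 3548 CPM in zdna4 CL, against 1890 and 1788 CPM in zdna2 CL, a rise of 0.91 (SE 0.0750, adjusted p = 5.88e-10) that had the smallest p of all genes tested. FLNC, filamin C, had 1502 and 1434 CPM in zdna4 CL, against 2149 and 2220 CPM in zdna2 CL, a fall of 0.57 (SE 0.0804, adjusted p = 8.43e-06). Beta-actin, ACTB, had 9165 and 9173 CPM in zdna4 CL, against 7206 and 7487 CPM in zdna2 CL, a rise of 0.32 (SE 0.0502, adjusted p = 4.02e-05, and 0.0521 without zdna4 CL replicate 1), and its reads are shared with near-identical actin genes and pseudogenes. The called actin genes of the list numbered 2 without zdna4 CL replicate 1, 4 without zdna4 CL replicate 2, 5 without zdna2 CL replicate 1 and 8 without zdna2 CL replicate 2.

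Genes of ribosome biogenesis, whose products build ribosomal subunits in the nucleolus, were lower in zdna4 CL. Of 41 tested members 12 fell and none rose, against 3.64% of all tested genes called lower, and 38 had a negative change. The median was -0.55, and it was -0.30 on the scale of the deposited values. Their summed level was 8908 and 8548 CPM in zdna4 CL, against 13033 and 13078 CPM in zdna2 CL, with 8385 and 9772 CPM in zdna1 CL and 11274 and 11022 CPM in zdna3 CL.

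DDX21, a nucleolar RNA helicase (chromosome 10, 70715926 to 70744825, plus strand), had 574 and 459 CPM in zdna4 CL, against 959 and 1080 CPM in zdna2 CL, a fall of 0.97 (SE 0.132, adjusted p = 4.94e-06). PES1, a factor of the large subunit, had 162 and 175 CPM in zdna4 CL, against 404 and 342 CPM in zdna2 CL, a fall of 1.10 (SE 0.177, adjusted p = 5.86e-05). RRP12, which acts in the maturation and export of subunits, fell by 1.30 (SE 0.222, adjusted p = 1.26e-04). These 3 genes kept their call without each library in turn and by DESeq2.

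Nucleolin, NCL, had 1394 and 1363 CPM in zdna4 CL, against 2113 and 1998 CPM in zdna2 CL, a fall of 0.57 (SE 0.0952, adjusted p = 8.55e-05, and 0.0668 without zdna4 CL replicate 1). UTP20, a processing factor of the small subunit whose promoter is printed above, had 101 and 112 CPM in zdna4 CL, against 289 and 174 CPM in zdna2 CL, a fall of 1.01 (adjusted p = 0.00778, and 0.285 without zdna4 CL replicate 1). WDR43, GNL2, DDX18, EBNA1BP2, GNL3, WDR75 and NPM1 also fell, by 0.40 to 0.97. FBL, fibrillarin, changed by 0.15 (adjusted p = 0.725) and POLR1A, the largest subunit of RNA polymerase I, by -0.27 (adjusted p = 0.359). Called members numbered 3 and 4 without zdna4 CL replicate 1 and replicate 2, and 8 and 7 without zdna2 CL replicate 1 and replicate 2. EdgeR called 15 of the list and DESeq2 4. NPM1, DDX18, EBNA1BP2, GNL3 and WDR75 were not called on the deposited scale.

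Lists of the translation and protein breakdown machinery had medians below that of all genes, and the sign or size of these medians depended on the scale. Of 75 tested cytosolic ribosomal protein genes 4 fell (5.33%, against 3.64% of all tested genes; RPL3, RPL10A, RPS4X and RPS6), 67 had a negative change, and the median was -0.14, which turns to 0.11 on the deposited scale. Translation factors had 5 lower of 27 tested (18.5%), among them EIF5B (-0.70), EIF3A (-0.55), EIF3B (-0.47) and EIF3D (-0.57), with a median of -0.24, against 0.00 on the deposited scale. Proteasome genes had 2 lower of 31 tested (6.45%), PSMD2 (-0.56) and PSMD11 (-0.67), with a median of -0.23, against 0.01 on the deposited scale. None of these calls held without either zdna4 CL library, where the 3 lists held 0 called members. Without zdna2 CL replicate 1 the falling members numbered 1 ribosomal protein, 3 translation factors and 0 proteasome genes, and without zdna2 CL replicate 2 they numbered 1, 1 and 0.

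Targets of YAP, the Hippo pathway's coactivator that works through TEAD factors, and of TGF-beta moved in both directions, with 5 lower and 2 higher of 15 tested (46.7% called). CCN2, connective tissue growth factor and a standard YAP target (chromosome 6, 132269317 to 132272512, minus strand), had 84.4 and 89.9 CPM in zdna4 CL, against 281 and 354 CPM in zdna2 CL. Its zdna1 CL levels were 322 and 220 CPM and its zdna3 CL levels 745 and 691 CPM, so that both zdna4 CL libraries were the lowest of the 8. The fall was 1.75 (SE 0.189, adjusted p = 8.71e-08). CCN1, another secreted matrix protein, had 277 and 288 CPM in zdna4 CL, against 700 and 456 CPM in zdna2 CL, a fall of 0.98 (SE 0.158, adjusted p = 6.34e-05).

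ANKRD1, also a widely used YAP target, had 199 and 126 CPM in zdna4 CL, against 411 and 480 CPM in zdna2 CL, a fall of 1.43 (SE 0.197, adjusted p = 6.13e-06). THBS1, described with the matrix genes, fell too. The 5 falling members of the list were lower in each of the 4 fits without 1 library and by DESeq2, and their groups did not overlap. TGFB2, a TGF-beta ligand, rose by 0.72 (adjusted p = 0.00375, and 0.193 without zdna4 CL replicate 2), with 510 and 522 CPM in zdna4 CL, against 310 and 306 CPM in zdna2 CL. TPM1, a tropomyosin, rose by 0.88 (adjusted p = 0.00693, and 0.395 without zdna4 CL replicate 2). The median of the list was -0.03, against 0.22 on the deposited scale.

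**Figure D5:**
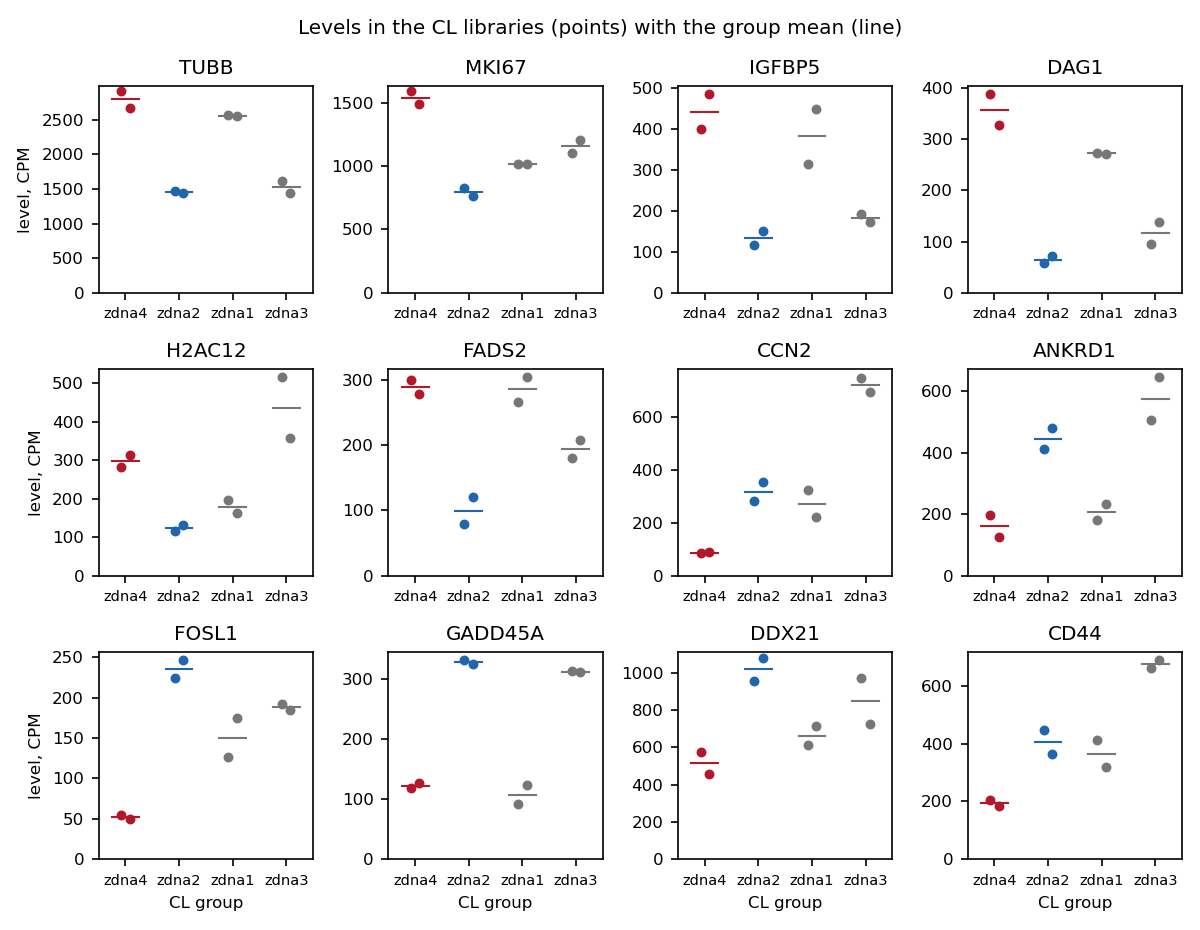
Levels in CPM of 12 genes in the 8 CL libraries, with points for libraries and a line for the mean of 2. In each panel both zdna4 CL points lie on 1 side of both zdna2 CL points, above them for TUBB, MKI67, IGFBP5, DAG1, H2AC12 and FADS2 and below them for CCN2, ANKRD1, FOSL1, GADD45A, DDX21 and CD44.

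AP-1 is a dimer of FOS and JUN family proteins, and immediate early genes are those that cells switch on within minutes of a stimulus. Of 15 tested members 4 fell and none rose by limma, with a median of -0.29, against -0.04 on the deposited scale, and edgeR called 3 lower and 1 higher (FOSL2). FOSL1, the FOS family member FRA1 (chromosome 11, 65659520 to 65667997, minus strand), had 54.0 and 49.5 CPM in zdna4 CL, against 224 and 246 CPM in zdna2 CL, a fall of 1.99 (SE 0.245, adjusted p = 9.08e-07). ERRFI1, whose product blocks EGF receptor signalling, fell by 1.54 (adjusted p = 0.00181, and 0.266 without zdna4 CL replicate 2). EGR1 fell by 1.00 (adjusted p = 0.0297) and MCL1 by 0.55 (adjusted p = 0.0491). MCL1 was not called in any fit without 1 library. EGR1 was not called without either zdna4 CL library, and without either zdna2 CL library it was below the filter and not tested. JUN changed by 0.35 (adjusted p = 0.222) and FOSL2 by 0.43 (adjusted p = 0.0531). The called members that fell numbered 2 without zdna4 CL replicate 1, 1 without zdna4 CL replicate 2, and 2 without either zdna2 CL library.

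Of 18 tested targets of p53, the tumour suppressor that halts the cycle after DNA damage, 4 fell (22.2%, against 3.64% of all tested genes) and none rose, 16 had a negative change, and the median was -0.42, or -0.18 on the deposited scale. Their summed level was 2791 and 2748 CPM in zdna4 CL, against 4176 and 4115 CPM in zdna2 CL, while zdna1 CL had 3294 and 3320 CPM and zdna3 CL 2488 and 2373 CPM. GADD45A, a stress and arrest gene (chromosome 1, 68150884 to 68154017, plus strand), had 118 and 126 CPM in zdna4 CL, against 332 and 324 CPM in zdna2 CL, a fall of 1.36 (SE 0.210, adjusted p = 3.66e-05) that held without each library in turn. MDM2, the ubiquitin ligase of p53, had 540 and 567 CPM in zdna4 CL, against 945 and 894 CPM in zdna2 CL, a fall of 0.72 (SE 0.137, adjusted p = 5.00e-04, and 0.128 without zdna4 CL replicate 1). TNFRSF10B, a death receptor, fell by 0.98 and RRM2B, a ribonucleotide reductase subunit, by 0.82, with adjusted p of up to 0.404 and 0.226 without 1 library. CDKN1A, the cyclin-dependent kinase inhibitor p21, changed by -0.55 (adjusted p = 0.107). In each fit without 1 library 2 members were called.

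MYC itself (chromosome 8, 128747680 to 128755197, plus strand) had 256 and 261 CPM in zdna4 CL, against 454 and 360 CPM in zdna2 CL. Its zdna1 CL levels were 350 and 233 CPM and its zdna3 CL levels 877 and 1002 CPM. Both zdna4 CL libraries lay below both zdna2 CL libraries, and the fall was 0.63 (SE 0.164, adjusted p = 0.0112). That call was lost by DESeq2, on the deposited scale, where the change was -0.38, and without zdna4 CL replicate 1 (adjusted p = 0.308), zdna4 CL replicate 2 (0.208) or zdna2 CL replicate 1 (0.231). MAX, its partner, changed by -0.86 (SE 0.308, adjusted p = 0.0721), with 60.7 and 67.5 CPM in zdna4 CL, against 123 and 126 CPM in zdna2 CL. MYC was the 1 member called of 7 tested in the MYC network list (14.3%, against 9.69% of all tested genes called). Of these 7, 4 had a negative and 3 a positive change, and the median was -0.60, against -0.36 on the deposited scale. The summed level of all 16 members was 1826 and 1632 CPM in zdna4 CL, against 1810 and 1746 CPM in zdna2 CL, a ratio of 0.97.

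The FACT subunits did not pass the test. SUPT16H had 331 and 301 CPM in zdna4 CL, against 390 and 372 CPM in zdna2 CL, a change of -0.26 (SE 0.170, adjusted p = 0.366). SSRP1 had 462 and 468 CPM in zdna4 CL, against 462 and 450 CPM in zdna2 CL, a change of 0.03 (SE 0.147, adjusted p = 0.934) whose sign turned with library totals. Of 15 tested FACT and histone chaperone genes, ANP32E (1.18), HMGB2 (0.97) and HIRA rose and NPM1 (-0.40) and SUPT6H (-0.54) fell. That is 33.3% called, against 9.69% of all tested genes. HMGB2 is also counted in the mitosis list and NPM1 in the ribosome biogenesis list. ANP32E removes the histone variant H2A.Z, and SUPT6H is an elongation factor that handles nucleosomes. The median of the list was 0.11. Its calls numbered 0 without either zdna4 CL library, 1 without zdna2 CL replicate 1 and 2 without zdna2 CL replicate 2.

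Among proteins that bind Z-form nucleic acids, ADAR, the RNA editing enzyme with a Z-binding domain, had 469 and 441 CPM in zdna4 CL, against 375 and 258 CPM in zdna2 CL, a rise of 0.53 (SE 0.167, adjusted p = 0.0374). It was the 1 called of 9 tested in its list (11.1%, near the 9.69% of all tested genes called), and the list's median was 0.11. ADAR lost its call without 3 of the 4 libraries and by library totals. ZBP1, the other Z-binding protein of human cells, had 1 read in zdna4 CL replicate 1 and 0 in the other 3 libraries. Of the topoisomerases, which relieve torsional strain, TOP2A alone of 5 tested was called (20%, median 0.17). TOP2B, the form not tied to the cell cycle, changed by 0.54 (SE 0.263, adjusted p = 0.200) and TOP1 by -0.39 (SE 0.227, adjusted p = 0.300), with overlapping libraries for TOP1.

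RNAs without a poly(A) tail and nuclear RNAs were somewhat higher, with 6 of 18 tested higher, none lower and a median of 0.15. RN7SL1, the 7SL RNA that scaffolds the signal recognition particle (chromosome 14, 50053298 to 50053596, plus strand), had 7245 and 7708 CPM in zdna4 CL, against 5323 and 5621 CPM in zdna2 CL, a rise of 0.45 (SE 0.0549, adjusted p = 8.31e-07). In zdna1 CL it had 9832 and 10634 CPM. RNA5S9, a 5S ribosomal RNA copy, rose by 1.53 (adjusted p = 1.66e-05), and NEAT1, the nuclear RNA that scaffolds paraspeckles, had 962 and 913 CPM in zdna4 CL, against 570 and 372 CPM in zdna2 CL, a rise of 1.01 (SE 0.155, adjusted p = 3.20e-05).

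RMRP (0.32), RPPH1 (0.22) and SNORD3A (0.36) rose less and lost their calls without 3 of the 4 libraries each. RN7SK, the small nuclear RNA that holds back transcription elongation, changed by 0.06 (adjusted p = 0.299). The called members of the list numbered 3 without either zdna4 CL library, 4 without zdna2 CL replicate 1 and 8 without zdna2 CL replicate 2. RN7SL1 and the 5S copies have near-identical relatives, among which reads cannot be fully divided.

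Iron storage and antioxidant genes included 4 that rose and 1 that fell of 17 tested, with a median of 0.34. GPX4, which reduces lipid peroxides, rose by 1.38 (adjusted p = 0.00179, and 0.172 without zdna4 CL replicate 2), and the ferritin chains FTH1 and FTL by 0.94 and 0.41, while the metallothionein MT2A fell. None of the 5 called genes of this list was called without either zdna4 CL library. HSPB1, the small heat shock protein HSP27 (chromosome 7, 75931990 to 75933609, plus strand), had 699 and 733 CPM in zdna4 CL, against 296 and 288 CPM in zdna2 CL, a rise of 1.27 (SE 0.154, adjusted p = 7.89e-07) that held without each library in turn. HSPA8 rose by 0.28 and the mitochondrial chaperone HSPA9 fell by 0.71 (adjusted p up to 0.389 and 0.142 without 1 library), and the 15 tested heat shock chaperones had a median of 0.20. Without either zdna4 CL library HSPB1 was the 1 heat shock gene called.

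Hypoxia and glycolysis genes had 2 higher (PLOD1, 1.08, and TPI1, 0.50) and 2 lower (HK2, -1.15, and SLC2A3, -1.18) of 24 tested, with a median of 0.10, and 0 and 1 were called without zdna4 CL replicate 1 and replicate 2, and 2 without either zdna2 CL library. ATF4, a stress response transcription factor, fell by 0.51 and was the 1 member called of 16 in its list (6.25%, median 0.05). TARS1, a tRNA synthetase, fell by 0.49 and was the 1 called of 19 (5.26%, median -0.06, against 0.17 on the deposited scale). SR proteins and hnRNPs had DDX17 higher (0.55) and TRA2B lower (-0.67) of 38 tested (5.26%). Their median was -0.03, against 0.21 on the deposited scale. CHD3, a chromatin remodeller, rose by 0.44 and was the 1 called of 39 tested (2.56%, median 0.01). The called shares of the lists of ATF4, TARS1, SR proteins and CHD3 lay below the 9.69% of all tested genes. ATF4, TARS1, DDX17, TRA2B and CHD3 were not called without either zdna4 CL library. Of lists without a called member, the respiratory chain had a median of 0.01 over 43 genes, the interferon response 0.01 over 5 and the unfolded protein response 0.28 over 13. NDUFS1 had an adjusted p of 0.144 in the first of these lists and HSPA5 one of 0.0670 in the last. At an unadjusted p under 0.05 these 3 lists held 4, 1 and 2 genes, and edgeR called 0, 0 and 1, while DESeq2 called none in them.

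Among the largest changes outside the lists, ZSCAN31, a zinc finger transcription factor (chromosome 6, 28292515 to 28324048, minus strand), had 67 and 40 reads in zdna4 CL, against 3 and 2 reads in zdna2 CL, a rise of 3.00 (SE 0.388, adjusted p = 2.02e-06) that DESeq2 did not call. MN1, a transcriptional coactivator, had 33 and 29 reads in zdna4 CL, against 1 and 2 reads in zdna2 CL, a ratio in CPM of 12.2 (95% interval 3.97 to 60.6 from counting error only), and it fell below the filter without zdna4 CL replicate 2. IRS1, the adaptor of the insulin receptor, had 219 and 297 CPM in zdna4 CL, against 28.9 and 90.0 CPM in zdna2 CL, a rise of 2.09 (SE 0.295, adjusted p = 8.43e-06). SHOC1, a gene known from meiosis, rose by 1.96 (adjusted p = 5.76e-06) and HAPLN1, a linker of hyaluronan and proteoglycans, by 2.35 (adjusted p = 3.76e-05).

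The falls included the histone deacetylase HDAC9 (-1.80, adjusted p = 4.94e-05), SYNE1, which links the nuclear envelope to the cytoskeleton (-1.67, adjusted p = 4.38e-05), the neuronal activity gene ARC (-1.71, adjusted p = 7.04e-05), and the circadian repressor NR1D1 (-1.90, adjusted p = 3.44e-04, and 0.0518 without zdna2 CL replicate 1). HDAC9 had 57.4 and 45.0 CPM in zdna4 CL, against 173 and 234 CPM in zdna2 CL. SYNE1 had 105 and 117 CPM in zdna4 CL, against 426 and 330 CPM in zdna2 CL. ARC had 43.9 and 31.5 CPM in zdna4 CL, against 144 CPM in each zdna2 CL library. The libraries of the groups did not overlap for any of these genes, which was a condition of the rule that named them.

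The median change per chromosome ran from -0.11 on chromosome 5 (247 genes) to 0.10 on chromosome 13 (55 genes). Of 142 windows of 20 Mb with at least 10 tested genes, the lowest median was -0.40, on chromosome 5 from 40000001 to 60000000 (hg19, 17 genes, with ITGA2 and IL6ST lower and GPX8 higher), and the highest was 0.25, on chromosome 6 from 80000001 to 100000000 (10 genes, with PNRC1 higher). On the deposited scale these medians shift up with that of all genes. The window on chromosome 6 from 20000001 to 40000000 held 20 higher and 4 lower genes of 97 tested, with a median of 0.06. Of all tested genes 6.05% were called higher and 3.64% lower. TUBB, ZSCAN31 and H2AC12 were among the higher genes of the window. H2AC12 and other called histone genes described above lie in it, so its count overlaps that of the histone list.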

How the data were processed

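Total RNA of U2OS cells was extracted with Trizol and made into libraries with an Abclonal kit, per the labels. Reads were processed with Trim Galore 0.6.6, STAR and bedtools 2.29.2, and hg19 and dm6 are named with no role, per the submitters' processing notes. Gene counts came from featureCounts 2.0.1 in paired mode over exons without strand, against hg19 plus a contig, per the file headers, so reads of overlapping or antisense genes cannot be told apart. The deposited values are a signal, not whole numbers: each is a multiple of the library's smallest step, and how the authors set that scale is not given in the sources used here. Divided by that step, 100% of nonzero values were whole reads to within 0.1 read.

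Reads of human genes were scaled to CPM with TMM factors (edgeR 4.0.16, R 4.3.3). Genes averaging at least 50 CPM over the 4 libraries were tested with limma 3.58.1 on log2(CPM + 10), with a mean-variance trend and array weights per group, in a fit of the 8 CL libraries as 4 group means. P-values are two-sided and Benjamini-Hochberg adjusted over all 4697 genes, with calls at 0.05. The tested genes held 83.5% to 85.0% of human reads in the 4 libraries. A 2 against 2 exact permutation test cannot go below 0.333, so sums of lists are given without a p. The count test, edgeR's quasi-likelihood on the recovered reads, called 495 genes. DESeq2 1.42.0, other scalings, filters, pseudocounts and sample sets, a replicate block and leaving out each library were alternatives. On data simulated at these depths limma recovered 54.7% of 86 genes changed 2-fold and 98.7% of 79 genes changed 4-fold. It made 7 false calls among 4685 genes. Whether the simulated spread between libraries matches the real spread was not tested, so these figures give no error rate for the calls here.

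Members and lists were chosen with earlier results of these data known, and lists carry no set test. Named genes are, by rule, the 15 largest called rises and 15 largest called falls without overlap between groups, 9 genes tied to the series title, up to 4 called members of each list (2 by smallest p where none was called) and up to 3 called genes of each window or chromosome described. Further list members, such as FBL, JUN and PCNA, are named for their known roles after their values were seen. Some results are not reported here. Intervals cover counting error only, as reads had no molecular identifiers and may be copies. Same-numbered replicates of different CL groups did not deviate together (correlations -0.02 to 0.02 over 6 pairs of groups), so the numbers were not taken as pairs. Gene positions are those of the files (hg19), and promoter sequences are from RefSeq (GRCh38.p14).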

Additional observations from a re-analysis of the deposited data

How the results depend on the processing

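The count of called genes, 455, was 741 on the deposited scale (665 higher), 70 with no filter beyond 1 read, 158 without array weights and 78 by DESeq2, which gave no adjusted p for 2459 genes. Leaving out 1 library gave 79 to 328 calls, and without zdna2 CL replicate 2 the higher share was 82.0% (269 of 328). The cause of these differences was not tested. The count lay between 404 and 543 by library totals, relative log expression factors, totals without nonpolyadenylated RNAs, other pseudocounts and edgeR. It was also within these bounds with filters at 20 or 100 CPM, the 4 libraries alone and all 16 libraries. The share called varied more, as the filters changed the number of genes tested. At 100 CPM 404 of 2414 genes were called and at 20 CPM 474 of 7914, against 455 of 4697. Adding the replicate number as a block gave 488 calls, 453 of them shared, and the pairing check gave no sign that the numbers pair the libraries. Of 112 named genes called, 91 kept their call on the deposited scale, 71 without array weights, 44 by DESeq2, 43 without a filter and 41 in all 4 fits without 1 library. SSRP1, which was not called, turned to -0.011 by library totals. Each read is worth 3.22 to 7.27 CPM before the TMM factor, so for genes near the filter a few reads set the value.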

Other observations

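Besides the genes named by rule, 17 genes were called in each fit without 1 library, 10 higher and 7 lower, and DESeq2 called all 17. They are given here after their values were seen. AHNAK2, a paralogue of AHNAK, had 867 and 787 CPM in zdna4 CL, against 310 and 312 CPM in zdna2 CL (1.38, adjusted p = 1.72e-08 by limma). PALLD, the actin-bundling protein palladin, had 871 and 850 CPM in zdna4 CL, against 404 and 402 CPM in zdna2 CL (1.08, adjusted p = 1.13e-06). LASP1, which binds actin at adhesions, rose by 0.96, and ANXA2, a membrane-binding annexin, by 0.57, with 3202 and 2676 CPM in zdna4 CL, against 1976 and 1950 CPM in zdna2 CL. The keratin KRT8 rose by 0.88.

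DLGAP5 and CEP250, which are in no list, act in mitosis. DLGAP5, a spindle protein, had 324 and 274 CPM in zdna4 CL, against 86.6 and 90.0 CPM in zdna2 CL (1.65, adjusted p = 3.85e-05), and CEP250, a centrosome linker, rose by 1.28. KPNA2, an importin alpha, rose by 0.97, RHOBTB3 by 1.45 and DHRS2, a short-chain dehydrogenase, by 1.56. The 7 that fell include PPP1R15A, the stress-induced phosphatase subunit GADD34, with 111 and 139 CPM in zdna4 CL, against 325 and 366 CPM in zdna2 CL (-1.40, adjusted p = 6.55e-06), and SNAPC1, a subunit of the complex that starts small nuclear RNA genes (-1.24, adjusted p = 3.80e-05). The laminin chain LAMB3 fell by 1.21, the kinase ABL2 by 0.90, the scaffold AKAP12 by 0.99 and the transcription factor CREB5 by 1.39, and THBS1 is described above.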
